A study of Rattus norvegicus with 6 samples.

Results

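HOX genes encode homeodomain transcription factors that give cells of the body axis their position along the head-to-tail line. In the tables analysed here, 36 rows of 17093 genes carry a Hox symbol of the form cluster letter and paralog number. Membership of these 36 genes was set by symbol and not by any value, though the HOX set was taken up with earlier results of these data known. Primary nucleus pulposus cells, from the gel-like core of the rat intervertebral disc, came from male animals and were used at passages 3 to 6. Serum-starved cells were kept without fetal bovine serum (3 libraries), and control cells are labelled as untreated, in the growth medium with 10% serum (3 libraries); both carry a time of 48 h. No transgene or genetic change is named. Neither strain, animal age nor disc level (neck, trunk or tail) is labelled. Separate animals or cultures are not stated for the replicates, so the p-values reflect the spread among 6 libraries, which may be technical.

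In rats as in other mammals the HOX genes lie in clusters named A, B, C and D, on chromosomes 4, 10, 7 and 3 of the GRCr8 assembly. Within a cluster the genes stand in the order in which they act along the axis: low paralog numbers towards the head, high numbers towards the tail, with paralogs being the same-numbered genes of different clusters. Cells cultured from adult connective tissue often keep the HOX pattern of the site they came from, which is why these genes are read as a record of positional identity. HOX proteins bind DNA together with TALE homeodomain cofactors (PBX and MEIS proteins), and their genes are held on by trithorax and MLL proteins and held off by Polycomb proteins.

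The reference table lists 39 HOX genes, of which Hoxb1, Hoxd1 and Hoxd12 were not analysed here. A value is the deposited one, treated as FPKM, so it is per transcript length and levels of different genes can be set side by side. Total RNA was depleted of ribosomal RNA and copied with random primers. In bulk RNA, fewer cells that express a gene and less RNA per cell cannot be told apart. Overlapping annotation limits some members: Hoxa4, Hoxa5 and Hoxa6 overlap the annotated span of Hoxa3, and Hoxc4 and Hoxc5 overlap that of Hoxc6. Neither the use of strand nor the division of reads among such genes is given in the sources used here, so the values of these 7 genes are uncertain. Hoxb3, Hoxb5, Hoxb6, Hoxc11 and Hoxd4 overlap annotated non-coding RNA genes, which limits their values in the same way.

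Promoter sequence of 17 of the 36 genes was matched by symbol in the RefSeq table of the GRCr8 build, as 18 windows of 250 bases before to 50 bases after a start. The sequences of 4 are shown: Hoxa13, which had the largest fold change of the HOX genes tested, Hoxa9, another member of the A cluster that rose, and the neighbours Hoxd9, which rose, and Hoxd8, which did not pass the test. Capitals mark matches on either strand to 4 motifs. They are the CCAAT box, the TATA box (TATAAA), the posterior HOX and CDX motif (TTTATNG), and the PBX with HOX motif TGATTNAT; on opposite strands the posterior HOX motif can overlap the TATA box.
Hoxa13, chr4:82691652-82691951, minus strand: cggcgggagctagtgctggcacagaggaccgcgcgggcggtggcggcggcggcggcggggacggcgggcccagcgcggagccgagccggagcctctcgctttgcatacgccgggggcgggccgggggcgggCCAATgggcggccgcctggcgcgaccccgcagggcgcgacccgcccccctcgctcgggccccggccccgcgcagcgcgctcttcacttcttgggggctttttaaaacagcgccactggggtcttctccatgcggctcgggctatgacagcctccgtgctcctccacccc
Hoxa9, chr4:82656999-82657298, minus strand: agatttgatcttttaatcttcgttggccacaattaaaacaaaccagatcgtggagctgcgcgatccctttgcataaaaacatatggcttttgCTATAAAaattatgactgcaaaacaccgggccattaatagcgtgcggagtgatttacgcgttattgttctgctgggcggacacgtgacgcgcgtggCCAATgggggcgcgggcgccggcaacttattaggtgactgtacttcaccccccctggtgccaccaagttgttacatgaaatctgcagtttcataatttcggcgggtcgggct
Hoxd9, chr3:80007756-80008055, plus strand: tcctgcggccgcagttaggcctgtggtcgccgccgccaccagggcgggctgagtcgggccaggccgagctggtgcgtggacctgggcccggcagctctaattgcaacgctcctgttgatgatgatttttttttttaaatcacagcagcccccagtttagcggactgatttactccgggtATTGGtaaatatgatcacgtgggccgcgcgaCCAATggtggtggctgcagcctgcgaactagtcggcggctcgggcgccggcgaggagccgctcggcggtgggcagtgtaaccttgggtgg
Hoxd8, chr3:80014973-80015272, plus strand: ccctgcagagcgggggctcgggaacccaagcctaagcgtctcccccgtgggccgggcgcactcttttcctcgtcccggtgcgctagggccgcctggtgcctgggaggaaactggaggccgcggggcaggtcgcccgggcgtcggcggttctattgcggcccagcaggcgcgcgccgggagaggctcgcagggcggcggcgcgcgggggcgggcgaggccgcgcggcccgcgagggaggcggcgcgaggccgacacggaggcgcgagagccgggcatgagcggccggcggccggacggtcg
Hoxa13 and Hoxd9 held CCAAT, on 1 and 2 occasions. Hoxa9 held 1 CCAAT and a stretch that matched both the TATA box and the posterior HOX motif, and Hoxd8 held none of the 4 motifs. Of the 18 HOX windows, 10 held CCAAT (55.6%, against 37.5% of all 33469 windows), 4 held the TATA box (22.2% against 14.2%), 2 held the posterior HOX motif (11.1% against 11.3%) and 2 held the PBX with HOX motif (11.1% against 3.18%). The windows came from the A and D clusters except for 1, that of Hoxc4, so they do not stand for all HOX promoters. They had a median GC content of 62.5%, against 51.7% over all windows, and a median observed-to-expected CpG ratio of 0.871 against 0.392. These matches describe the letters of the windows and were not set against binding data.

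Transcripts of HOX genes from the head end to the tail end of the clusters were listed in both conditions. Paralog groups 2 to 13 each had at least 1 gene at a value of 1 or above in each of the 6 libraries. A value of 1 or above was reached by 27, 27 and 28 HOX genes in serum-starved replicates 1, 2 and 3, and by 25, 24 and 26 in control replicates 1, 2 and 3. There were 24 genes at 1 or above in all 6 libraries and 8 in none. The other 4 crossed the line: Hoxa3, Hoxc5, Hoxc6 and Hoxd10, which reached 1 in serum-starved replicate 3 alone. Groups 2 to 13 also each had a gene at 2 or above in each library.

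**Figure D1:**
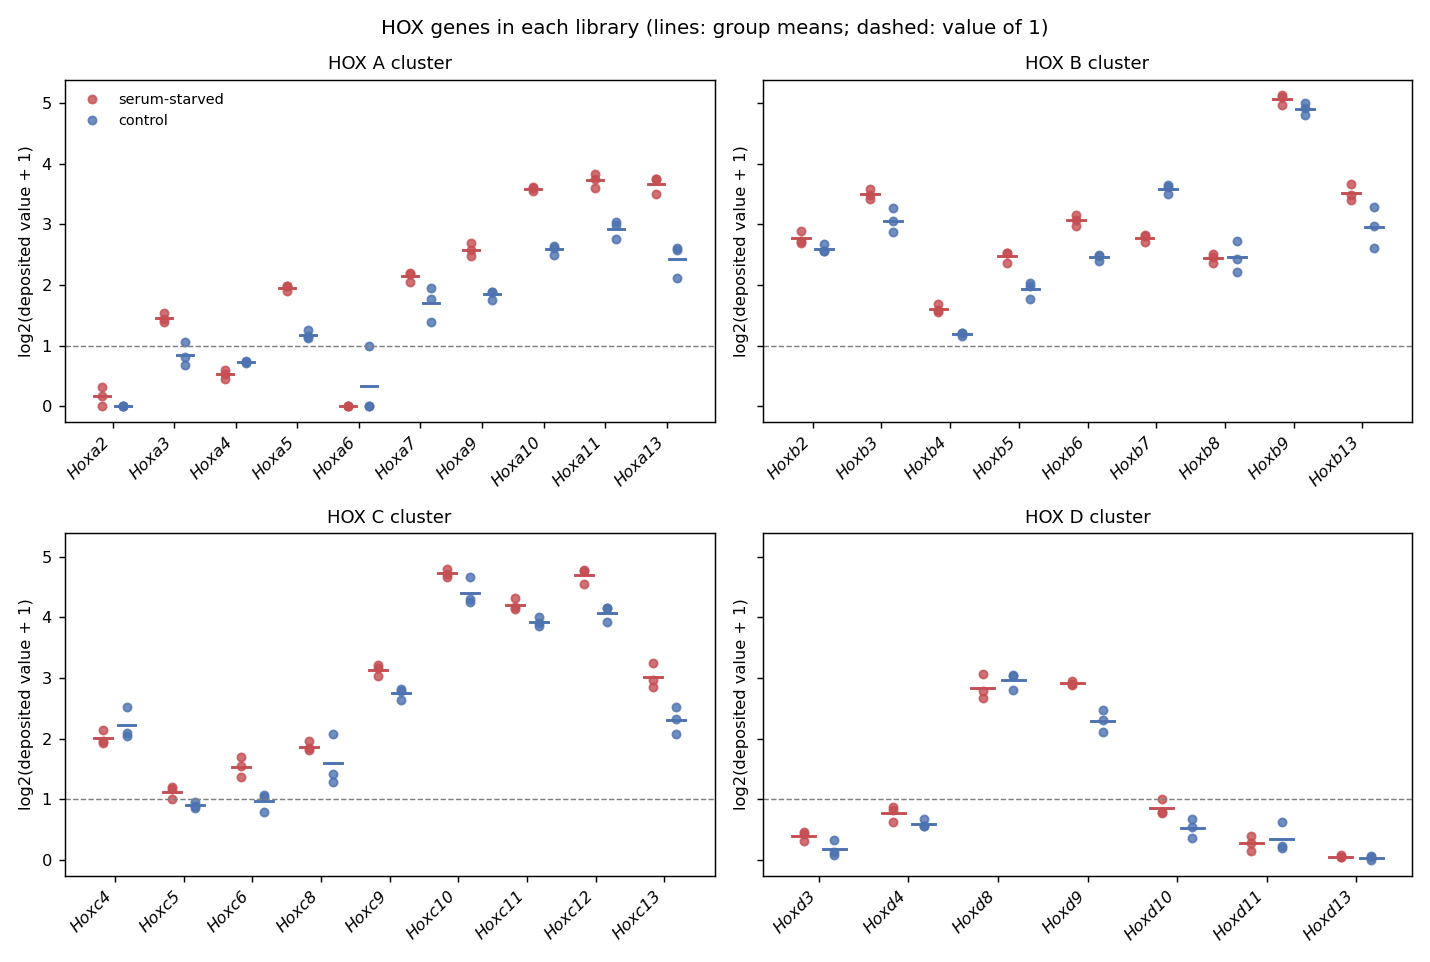
Deposited values of HOX genes as log2(value + 1) on the y axis, with the genes of each cluster in order of paralog number on the x axis. Points are libraries (3 serum-starved at left, 3 control at right of each gene), short lines are group means and the dashed line is a value of 1. Hoxb9 and Hoxc10 to Hoxc12 stand highest in both groups, and Hoxd10, Hoxd11 and Hoxd13 lie at or below 1.

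Posterior genes, of groups 9 to 13, held most of the HOX signal. Summed over their 15 listed genes the values were 173 ± 7.05 in serum-starved and 120 ± 9.68 in control cells (SD, n = 3 each), which was 72.4% to 73.1% of all HOX values in serum-starved and 67.1% to 68.8% in control libraries. Central genes, of groups 5 to 8, summed to 40.4 ± 2.20 in serum-starved and 37.5 ± 3.64 in control cells, and anterior genes, of groups 1 to 4, to 24.7 ± 0.579 in serum-starved and 19.5 ± 2.07 in control cells. Hoxb9 was the most abundant HOX gene in both groups, followed by Hoxc10, Hoxc12 and Hoxc11 in order of the means; values of Hoxc10 and Hoxc12 overlapped in serum-starved cells, and those of Hoxc12 and Hoxc11 in control cells. Across the 6 libraries Hoxb9 had a higher mean than 76.4% of the 11493 tested genes. The median HOX gene was less abundant than the median gene: 5.58 over the 27 tested HOX genes, against 11.8 over all tested genes.

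The D cluster held little of the signal of the last paralog groups. Group 13 was read from the A, B and C clusters, with Hoxa13 at 11.7 ± 1.18, Hoxb13 at 10.46 ± 1.10 and Hoxc13 at 7.17 ± 1.19 in serum-starved cells, and at 4.47 ± 0.987, 6.88 ± 1.78 and 3.99 ± 0.75 in control cells (SD, n = 3 each). Hoxd13, their D cluster paralog, did not exceed 0.06 in any library. Hoxd10 and Hoxd11 did not exceed 1 and 0.54, while Hoxc10 and Hoxc11 were above 13 in every library. In the D cluster the signal lay in Hoxd8 and Hoxd9. In the mouse, group 13 genes act last along the axis, in the tail, genitalia and limb ends.

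The design asks which of these genes differed without serum. Of the 36 genes, 27 reached the filter of at least 1 in at least 3 libraries and were tested with limma across all 11493 genes that did so. Among them Hoxc5 passed only through its serum-starved values. Hoxa3 and Hoxc6 had fewer than 3 control values at 1 or above, so they too needed their serum-starved values to pass. Higher values in serum-starved cells passed the test for 19 of the 27 (70.4%), against 31.7% of all tested genes. A lower value passed for 1, Hoxb7 (3.7%), against 29.4% of all tested genes, and 7 did not pass. In total 20 of 27 were called (74.1%), against 61.1% of all tested genes. A call needed an adjusted p (Benjamini-Hochberg, all tested genes) at or under 0.05. After scaling each library to the same total, 22 HOX genes rose and 1 fell, and 46.1% of all tested genes were called higher; 69.5% of all calls were then higher, against 51.8% on the deposited scale. The median log2 fold change, serum-starved minus control measured as log2(value + 1), was 0.44 over the 27 HOX genes and 0.03 over all tested genes. Groups did not overlap for 21 HOX genes with higher and 1 with lower serum-starved values, against 35.7% and 32.5% of all tested genes. The 21 include Hoxc5, whose separation was fixed by the way it passed the filter. Hoxa3 and Hoxc6, which needed their serum-starved values to pass, are among the 21 and the 19 as well. On this scale Hoxa13 alone was past a log2 fold change of 1; with a pseudocount of 0.1 in place of 1, Hoxa10, Hoxa5 and Hoxa3 were past it too, at 1.12, 1.12 and 1.04.

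**Figure D2:**
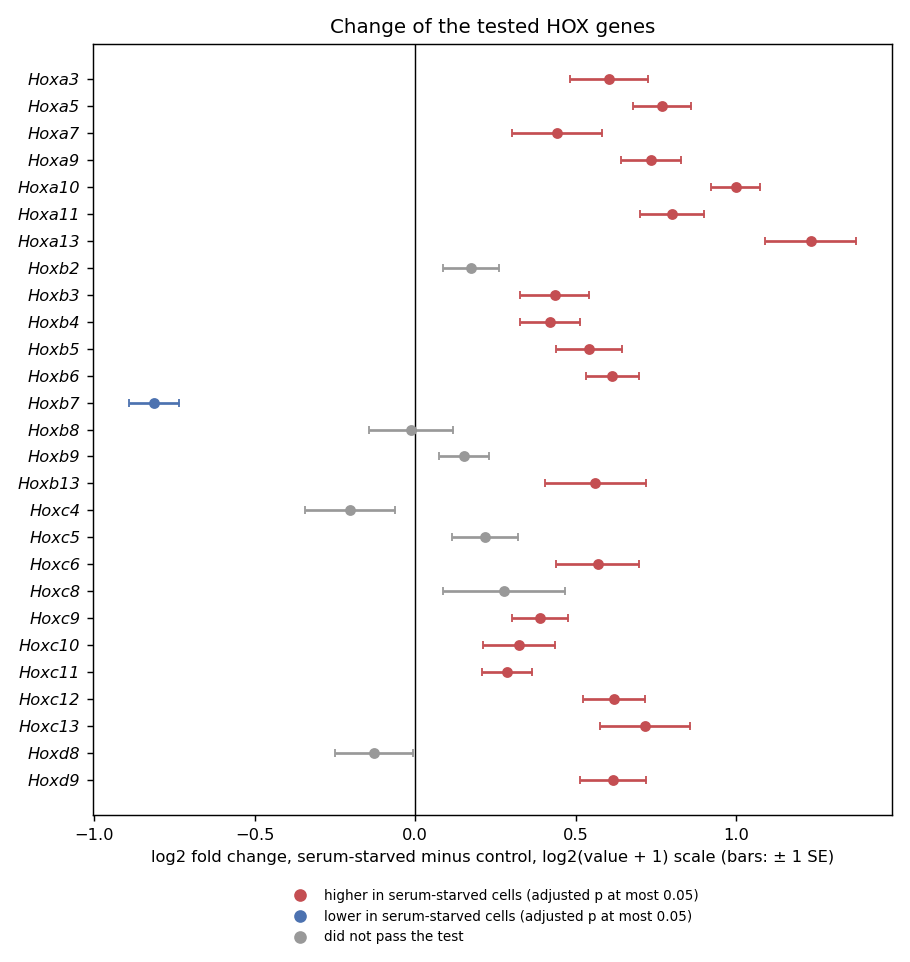
Log2 fold change of the 27 tested HOX genes, serum-starved minus control in log2(value + 1), with bars of ± 1 SE from limma. The 7 tested A cluster genes all lie right of 0, and Hoxb7, at -0.81, is the 1 gene called lower.

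Hoxa13 (gene ID 500129), needed in the mouse for digits and the genital tract, had 12.39, 12.41 and 10.35 in serum-starved cells, against 3.33, 5.1 and 4.97 in control cells. The lowest serum-starved value was above each control value, and the mean was 2.62-fold higher, with a log2 fold change of 1.23 ± 0.14 (SE; limma, Benjamini-Hochberg adjusted p = 0.000136). Hoxa10 (gene ID 103692129), a gene of the lumbar axis and the uterus in the mouse, had 10.74, 11.2 and 11.06 in serum-starved cells, against 4.65, 5.27 and 5.13 in control cells. The replicates of each group lay close together, and the log2 fold change was 1.00 ± 0.08 (SE; limma, Benjamini-Hochberg adjusted p = 1.34e-05). Hoxa11 (gene ID 103692131), which shapes the forearm and shank in the mouse, had 11.16, 12.43 and 13.14 in serum-starved cells, against 6.92, 7.21 and 5.73 in control cells. It was 1.85-fold higher in serum-starved cells (limma, Benjamini-Hochberg adjusted p = 0.000217), and all 3 serum-starved libraries were above all 3 controls.

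Hoxa9, a posterior gene also known from blood progenitors, had 4.94, 4.56 and 5.44 in serum-starved cells, against 2.37, 2.7 and 2.7 in control cells, and rose 1.92-fold (limma, Benjamini-Hochberg adjusted p = 0.000231). Hoxa5 (gene ID 79241), which patterns the neck-to-thorax transition and the lung in the mouse, had 2.93, 2.93 and 2.73 in serum-starved cells, against 1.17, 1.24 and 1.4 in control cells. It rose 2.25-fold with a log2 fold change of 0.77 ± 0.09 (SE; limma, Benjamini-Hochberg adjusted p = 0.000163). Hoxa3 rose 2.14-fold, with 1.74 ± 0.143 in serum-starved cells, against 0.813 ± 0.241 in control cells (SD, n = 3 each). Hoxa7 rose 1.49-fold, with control values spread from 1.63 to 2.84, and its call was lost when serum-starved replicate 1, serum-starved replicate 2 or control replicate 2 was left out (limma, Benjamini-Hochberg adjusted p = 0.0715, 0.0703 and 0.0645), and with no filter (0.052). The A cluster thus had 7 of 7 tested genes higher, against 31.7% of all tested genes, with a median log2 fold change of 0.77. The 7 include Hoxa3, which needed its serum-starved values to reach the filter. Hoxa2, Hoxa4 and Hoxa6 were below the filter and not tested. Hoxa4 had lower values, at 0.52, 0.44 and 0.37 in serum-starved cells against 0.65, 0.68 and 0.64 in control cells. Hoxa2 was listed at 0.13, 0.25 and 0 in serum-starved cells and at 0 in control cells, and Hoxa6 was listed at 0 except for 0.99 in control replicate 3.

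The B cluster held both the most abundant gene and the 1 that fell. Hoxb7 (gene ID 497985) had 5.51, 5.96 and 6.04 in serum-starved cells, against 10.29, 11.53 and 11.22 in control cells. All serum-starved values were below all control values, 1.89-fold lower on average, with a log2 fold change of -0.81 ± 0.08 (SE; limma, Benjamini-Hochberg adjusted p = 4.91e-05). Its neighbour Hoxb6, a rib-promoting gene in the mouse, had 6.86, 7.41 and 7.93 in serum-starved cells, against 4.64, 4.56 and 4.26 in control cells, and rose 1.65-fold (limma, Benjamini-Hochberg adjusted p = 0.000329). The ratio of Hoxb7 to Hoxb6 within a library is not altered by a single scaling factor per library. It was 0.790 ± 0.0243 in serum-starved and 2.46 ± 0.216 in control cells (SD, n = 3 each). The order of the neighbours thus differed between the groups in every library. This ratio was chosen after the values were seen. Hoxb8, on the other side of Hoxb7, did not pass, at 4.5, 4.12 and 4.7 in serum-starved cells against 4.37, 3.64 and 5.61 in control cells.

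Hoxb9 (gene ID 287647), which acts on the ribs in the mouse, had 30.12, 33.14 and 33.91 in serum-starved cells, against 29.29, 26.91 and 30.97 in control cells. The groups overlapped, and the log2 fold change of 0.15 ± 0.08 (SE) did not pass (limma, Benjamini-Hochberg adjusted p = 0.117). Scaling each library to the same total brought it below the threshold (limma, adjusted p = 0.00817 by Benjamini-Hochberg, with 0.00817 to 0.353 over all alternatives), as did quantile normalization and library weights. Hoxb13, which limits tail length in the mouse, had 9.53, 10.17 and 11.68 in serum-starved cells, against 5.13, 6.82 and 8.69 in control cells, and rose 1.52-fold (limma, Benjamini-Hochberg adjusted p = 0.0144). Its controls were spread widely, and the call was lost without serum-starved replicate 3 (limma, Benjamini-Hochberg adjusted p = 0.0546). Hoxb3, a hindbrain and pharyngeal gene, had 10.21, 9.68 and 10.97 in serum-starved cells, against 6.33, 7.27 and 8.59 in control cells, and rose 1.39-fold (limma, Benjamini-Hochberg adjusted p = 0.00781). Hoxb4 rose, with 2.05 ± 0.148 in serum-starved and 1.28 ± 0.0493 in control cells, and Hoxb5 rose, with 4.54 ± 0.341 in serum-starved and 2.82 ± 0.371 in control cells (SD, n = 3 each). Hoxb2, another hindbrain gene, had 6.42, 5.6 and 5.46 in serum-starved cells, against 5.36, 4.9 and 4.87 in control cells, and did not pass (limma, Benjamini-Hochberg adjusted p = 0.115), though it did after scaling to the same total (0.00807). Of the 9 B cluster genes, then, 5 rose, 1 fell and 3 missed the threshold (median log2 fold change 0.42). Of all tested genes 31.7% were higher and 29.4% lower.

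In the C cluster, the tail-end genes Hoxc13 and Hoxc12 had log2 fold changes of 0.71 and 0.62. Hoxc12 (gene ID 300262), the only listed gene of group 12, had 22.28, 26.61 and 26.09 in serum-starved cells, against 14.2, 16.76 and 16.84 in control cells. It was 1.57-fold higher, with a log2 fold change of 0.62 ± 0.10 (SE; limma, Benjamini-Hochberg adjusted p = 0.000688). Hoxc13, known in the mouse for hair and nails, had 6.23, 8.51 and 6.78 in serum-starved cells, against 3.24, 3.98 and 4.74 in control cells, and rose 1.80-fold (limma, Benjamini-Hochberg adjusted p = 0.00245). Hoxc11 rose 1.24-fold (limma, Benjamini-Hochberg adjusted p = 0.0117), with 17.09, 18.99 and 16.54 in serum-starved cells against 13.56, 14.05 and 14.98 in control cells. Hoxc10 (gene ID 315338), a lumbar and hindlimb-level gene, had 25.3, 26.69 and 24.45 in serum-starved cells, against 18, 18.63 and 24.44 in control cells. Control replicate 3 nearly reached the serum-starved values of Hoxc10. Its call (limma, Benjamini-Hochberg adjusted p = 0.0343) was lost without any 1 of the 3 serum-starved libraries or of control replicates 1 and 2, at adjusted p values of 0.0604 to 0.111 in those 5 limma fits. It was also lost under median-ratio scaling and with no filter (limma, adjusted p = 0.0538 and 0.0612).

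Hoxc9, a thoracic gene, had 8.31, 7.99 and 7.16 in serum-starved cells, against 5.9, 6.06 and 5.25 in control cells, and rose 1.36-fold (limma, Benjamini-Hochberg adjusted p = 0.00504). Hoxc6, a thoracic gene as well, rose 1.99-fold, with 1.91 ± 0.345 in serum-starved cells, against 0.963 ± 0.204 in control cells (SD, n = 3 each). Hoxc4, Hoxc5 and Hoxc8 did not pass, Hoxc5 with 1 to 1.29 in serum-starved and 0.81 to 0.94 in control cells. Hoxc5 passed after scaling to the same total and with library weights (limma, adjusted p = 0.0303 and 0.0342). Hoxc8 had 2.5, 2.58 and 2.89 in serum-starved cells, against 1.45, 1.66 and 3.2 in control cells, so that control replicate 3 was the highest of the 6 libraries. Without that library its log2 fold change was 0.52 (limma, Benjamini-Hochberg adjusted p = 0.00456), against 0.28 with it, and it also passed with library weights (0.0253). Hoxc4 was also highest in control replicate 3, at 4.74, against 2.8 to 3.43 in serum-starved cells and 3.12 and 3.25 in the other controls. The C cluster counted 6 of 9 genes higher, against 31.7% of all tested genes, and 3 short of the threshold (median log2 fold change 0.32).

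Of the 7 listed D cluster genes, 2 were tested. Hoxd9, which acts with its A cluster paralog in the mouse forelimb, had 6.73, 6.37 and 6.5 in serum-starved cells, against 3.33, 3.95 and 4.53 in control cells. The groups did not overlap and it rose 1.66-fold, with a log2 fold change of 0.62 ± 0.10 (SE; limma, Benjamini-Hochberg adjusted p = 0.00102). Its neighbour Hoxd8 had 5.35, 7.35 and 5.88 in serum-starved cells, against 7.21, 6 and 7.3 in control cells, and did not pass (limma, Benjamini-Hochberg adjusted p = 0.377). The ratio of Hoxd9 to Hoxd8 within a library was 1.08 ± 0.197 in serum-starved and 0.580 ± 0.104 in control cells (SD, n = 3 each), another ratio chosen after the values were seen. Hoxd3, Hoxd4, Hoxd10, Hoxd11 and Hoxd13 stayed below the filter. Hoxd10 had 0.72, 0.71 and 1 in serum-starved cells, against 0.46, 0.6 and 0.29 in control cells, and Hoxd4 had 0.77, 0.54 and 0.84 in serum-starved cells, against 0.47, 0.47 and 0.59 in control cells. Hoxd3 lay between 0.24 and 0.38 in serum-starved and between 0.06 and 0.25 in control cells, and Hoxd11 between 0.11 and 0.31 in serum-starved and between 0.14 and 0.54 in control cells.

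By position along the axis, 11 of 12 tested posterior genes rose and 1 missed the threshold (median log2 fold change 0.62), where 31.7% of all tested genes rose. Among 10 tested central genes 5 rose, 1 fell and 4 did not pass (median 0.36), and among 5 tested anterior genes 3 rose and 2 did not pass (median 0.42). A difference between these classes was not tested. Summed over paralogs, group 13 stood at 29.4 ± 1.53 in serum-starved cells, against 15.4 ± 3.37 in control cells, 1.91-fold higher. Group 7 was the only group with a lower sum and no overlap, at 9.25 ± 0.202 in serum-starved cells against 13.3 ± 0.701 in control cells (SD, n = 3 each), and there Hoxa7 rose while Hoxb7 fell. The sums of groups 4 and 8 overlapped between the conditions.

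**Figure D3:**
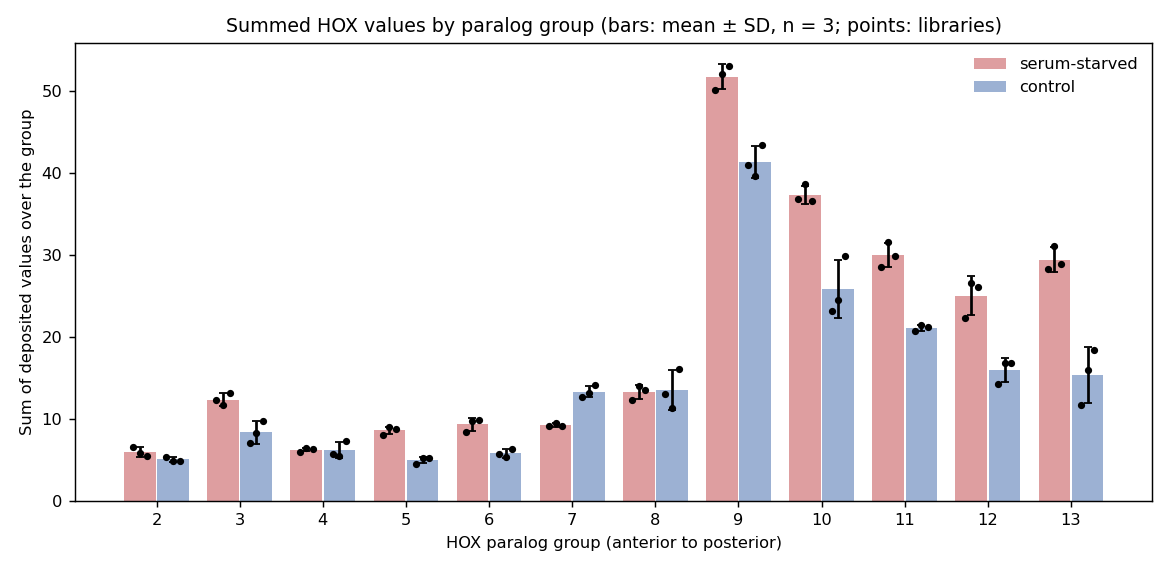
Sum of the deposited values over the listed genes of HOX paralog groups 2 to 13 (x axis), as mean ± SD of 3 libraries with the libraries as points, serum-starved at left and control at right. Groups 9 to 13 stand highest, and group 7 is lower in serum-starved cells at 9.25 against 13.3 in control cells.

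The weight of the clusters also differed. The A cluster summed to 48.7 ± 0.711 in serum-starved cells, against 24.1 ± 1.76 in control cells (SD, n = 3 each), 2.03-fold higher. The B, C and D clusters were 1.15-fold, 1.35-fold and 1.22-fold higher, and the groups did not overlap for any of the 4 sums. A share of all HOX values is not altered by a single scaling factor per library. By this measure the A cluster made up 20.1% to 21.1% in serum-starved and 13.2% to 14.3% in control libraries. The B cluster made up 33.6% to 36.4% in serum-starved and 40.6% to 42.0% in control libraries. Shares of the C cluster overlapped, at 37.4% to 40.0% in serum-starved and 37.5% to 39.4% in control libraries. The D cluster made up 6.11% to 6.28% in serum-starved and 6.67% to 7.13% in control libraries. These sums and shares are descriptions and carry no test.

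**Figure D4:**
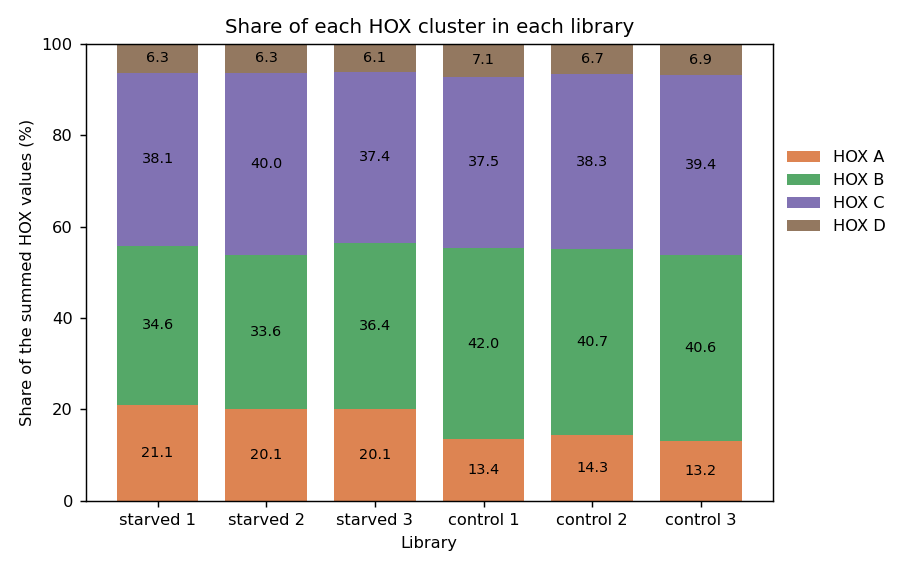
Share of the summed HOX values (y axis, percent) held by the A, B, C and D clusters in each of the 6 libraries (x axis), serum-starved at left and control at right. The A cluster takes 20.1% to 21.1% in serum-starved and 13.2% to 14.3% in control libraries.

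TALE genes, most of them genes of the DNA-binding partners of HOX proteins, were read next. The list also held Tgif1 and Tgif2, related TALE genes that are not counted here as HOX partners. Among 9 tested TALE genes 5 rose, 1 fell and 3 missed the threshold (median log2 fold change 0.44), where of all tested genes 31.7% were higher and 29.4% lower. Meis2, a MEIS cofactor gene, had 49.22, 46.27 and 55.17 in serum-starved cells, against 22.53, 25.67 and 26.56 in control cells, and rose with a log2 fold change of 0.98 ± 0.09 (SE). Pbx3 and Meis3 rose by log2 fold changes of 0.81 and 0.75. Pknox1, which encodes the partner PREP1, was the TALE gene that fell, and this call was lost after scaling libraries to the same total and when any 1 of control replicates 1 and 3 and serum-starved replicates 2 and 3 was left out. Meis1 had 33.4 to 37.6 in serum-starved cells and 34.3 to 40.7 in control cells and did not pass.

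Counts of called chromatin regulators of HOX loci lay near the shares over all tested genes, of which 31.7% were higher and 29.4% lower. Of 12 trithorax and MLL genes 4 rose, 4 fell and 4 did not pass (median 0.15), and 7 rose and 2 fell after scaling to the same total. Kmt2c, an MLL-family methyltransferase, and Kdm6a, which removes the Polycomb mark, rose by log2 fold changes of 0.79 and 0.65. Psip1, a chromatin tether of MLL, and Dpy30, a shared subunit of the MLL complexes, had log2 fold changes of -0.97 and -0.76 and fell. Of 24 Polycomb genes 9 rose, 6 fell and 9 did not pass (median 0.10), which is likewise near those shares. Ezh2, the methyltransferase of dividing cells, had 3.67, 4.03 and 3.77 in serum-starved cells, against 20.24, 15.64 and 17.9 in control cells, while its paralog Ezh1 had 17.91, 18.07 and 17.49 in serum-starved cells, against 9.58, 11.17 and 11.61 in control cells. Phf19, an accessory subunit of the same complex, was at 0.17 to 0.36 in serum-starved and 6.44 to 7.14 in control cells. Phf19 passed the filter only through its control values, so its separation was fixed by the way it passed. Cbx7, a reader of the mark, rose with a log2 fold change of 1.18 ± 0.14 (SE). Whether these regulators bear on the HOX values was not tested.

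**Figure D5:**
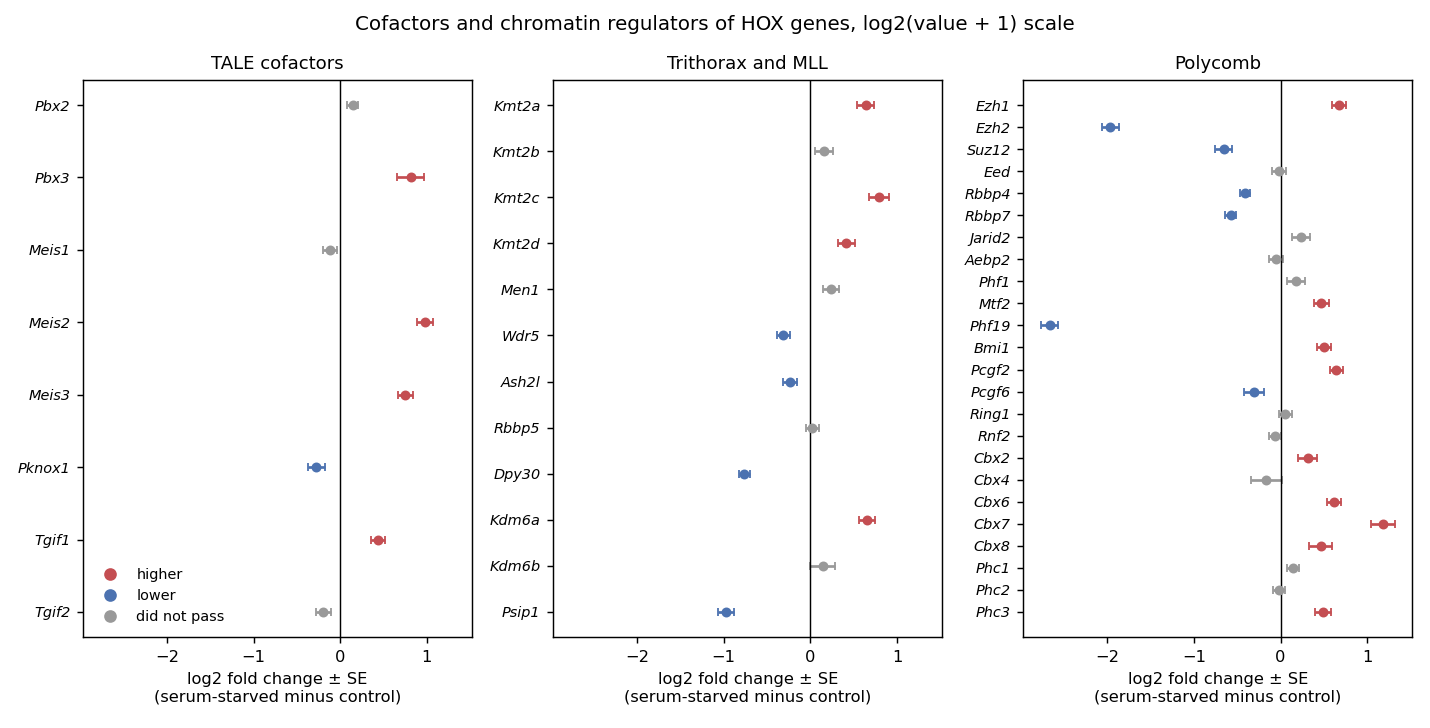
Log2 fold change, serum-starved minus control in log2(value + 1), with ± 1 SE from limma, for tested TALE genes (8 of 9), trithorax and MLL genes (12) and Polycomb genes (24). Meis2 lies at 0.98, and Phf19 and Ezh2 lie farthest left, at -2.67 and -1.97. Phf19 passed the filter only through its control values.

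Other regional genes, mostly transcription factors with a few signal and enzyme genes of axis patterning, were also listed. Increases were called for 4 and decreases for 2 of 10 tested genes (median 0.14), where of all tested genes 31.7% were higher and 29.4% lower, and 14 matched genes stayed below the filter. Gdf11, a signal that sets the trunk-to-tail transition in the mouse, rose by a log2 fold change of 0.90, while Tbx3 and Tbx1, T-box genes of limb and pharynx, had log2 fold changes of -0.78 and -0.75. Without serum-starved replicate 3, 1 gene of this list fell. The head gene Otx2 was listed at 0 in all 6 libraries. Cdx1, a caudal-type activator of HOX genes, was named after its values were seen: it was not tested, at 1.05, 1.11 and 0.89 in serum-starved cells and 0.2, 0.23 and 0.12 in control cells. The sclerotome and notochord list had 6 increases and 4 decreases among 13 tested genes (median -0.11), beside the same 31.7% and 29.4%. Mkx and Nkx3-2, of tendon and sclerotome, rose by log2 fold changes of 1.34 and 0.96, and Sox9 and Car12 fell, at -1.43 and -1.39. Car12 passed the filter only through its control values, which fixed its direction. The 4 falls became 2 after scaling to the same total and without 1 library in 5 of 6 cases (serum-starved replicate 2 or 3, or any control). Without a control, 12 genes of this list were tested, because Car12 no longer reached the filter, so its fall was lost untested.

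Genes that flank the HOX clusters were read for comparison. All 12 matched genes of that list lie within 4 protein-coding genes of a cluster in GRCr8. Increases were called for 4 and decreases for 3 of the 11 tested (median log2 fold change -0.17), near the 31.7% and 29.4% of all tested genes. Calcoco1, near the C cluster, and Snx11, near the B cluster, rose by log2 fold changes of 0.94 and 0.63. Lnpk, near the D cluster, had a log2 fold change of -0.86 and Cbx5, near the C cluster, -0.80. Skap2 and Mtx2, the next protein-coding genes to the A and D clusters, did not pass. The non-coding RNAs and miRNAs of the clusters were not analysed here.

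Values of a library summed to 447788 to 473452 in serum-starved and 522165 to 530095 in control libraries. Marker genes of nucleus pulposus cells and of other cell types were read as well. Their counts stand beside 31.7% of all tested genes called higher and 29.4% called lower, 61.1% in total. Nucleus pulposus markers (10 matched) summed to 99.6 to 111 in serum-starved and 125 to 177 in control libraries, with Acan at 2.67 to 3.27 in serum-starved and 47.2 to 102.75 in control libraries. Of the 7 tested nucleus pulposus markers 5 fell and 2 rose, Car3 (26.1 ± 0.852 in serum-starved and 1.03 ± 0.219 in control cells) and Pax1 (51.2 ± 5.02 in serum-starved and 27.5 ± 3.43 in control cells; SD, n = 3 each). Sox9 was among those that fell, at 1.27 in serum-starved and 5.11 in control cells on average. Car12 was another, and it passed the filter only through its control values. Col2a1 of the same list did not exceed 0.06, and Krt18 was listed at 0 in all 6 libraries. Annulus and fibroblast markers (7 matched) summed to 3499.9 to 3655 in serum-starved and 2788 to 3169 in control libraries, mostly from Col1a1; 4 rose, Thy1 fell (297 in serum-starved and 921 in control cells on average) and 2 did not pass. Pericyte and smooth muscle markers (5 matched) summed to 646 to 727 in serum-starved and 264 to 368 in control libraries. Acta2 of this list lay at 517.68 to 580.65 in serum-starved and 110.07 to 205.62 in control libraries. Of the 4 tested, 3 rose and Cspg4 fell (37.5 in serum-starved and 108 in control cells on average). Rgs5, the pericyte marker that was not tested, did not exceed 0.15 in any library. Chondrocyte markers (8 matched) summed to 394 to 426 in serum-starved and 104 to 130.03 in control libraries, nearly all of it Col11a1, the 1 member tested; the other 7 averaged below 1 in both groups. Skeletal muscle markers (3 matched) summed to 12.5 to 16.9 in serum-starved and 114 to 138 in control libraries, and macrophage and blood markers (4 matched) to 10.6 to 14.2 in serum-starved and 23.5 to 29.9 in control libraries. Des and Cd14 carried these sums and fell. Acta1 and Cd68 of the same lists rose, at 1.37 and 3.38 in serum-starved and 0.0633 and 1.96 in control cells on average. Acta1 passed the filter only through its serum-starved values, which fixed its direction. The part of these markers in the HOX results was not tested. Endothelial markers (4 matched) stayed at 1.19 or less in sum, Sox10 of Schwann cells was listed at 0 throughout, and Myod1 and Adgre1, of muscle and macrophages, did not exceed 0.03 and 0.02.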

How the data were processed

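RNA of 6 libraries was sequenced after ribosomal RNA depletion, per the labels' protocols. The authors deposited 1 table of FPKM-type values per library; the headers name no unit, and FPKM is inferred from decimal values whose totals differ between libraries. Tools named in the submitters' processing notes are bcl2fastq 2.0, HISAT2 and StringTie, with DESeq2 and limma; how they were applied is not given. The notes name mm10, which is a mouse genome; the gene IDs are rat ones, and 15927 (93.2%) matched the GRCr8 table, including 35 of 36 HOX IDs (Hoxa10 by symbol only). Depth in reads is unknown.

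Values were analysed as log2(value + 1), which understates changes of low genes, for genes at 1 or above in at least 3 libraries, with limma 3.58.1 in R 4.3.3 (trend, treatment as the only term) and Benjamini-Hochberg adjustment over 11493 genes. As a check of the code, the fit was run on simulated data with independent normal noise. That setting does not cover replicates from a shared source or a shift in library totals. Tables and plots were made with Python 3.11.15, pandas 2.3.3, numpy 2.4.6 and matplotlib 3.10.9. Alternatives covered the pseudocount, the filter, 3 scalings, library weights, the replicate number as a block and leaving out each library. Among genes at 5 or above in both libraries of a pair, no pair had over 0.265% equal values. HOX genes and the compared lists were chosen with earlier results of these data known; HOX genes are named, those with a mean of at least 5 and the 5 largest called changes in full, and in other lists up to 4 called genes with the largest change. Some genes are counted in these totals but their own values are not reported here.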

Additional observations from a re-analysis of the deposited data

How the results depend on the processing

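The 19 HOX genes called higher became 17 to 22 over the alternatives, and Hoxb7 was called lower in all of them. Of the 20 called HOX genes, 17 kept their call and direction in every alternative run; Hoxa7, Hoxc10 and Hoxb13 did not. Scaling each library to the same total raised the median of all genes by 0.184 (log2), so that 69.5% of calls were higher, against 51.8% on the deposited scale. Relative to all genes the HOX median was then 0.46, against 0.41 as deposited; median-ratio scaling gave 0.42 and quantile normalization 0.34.

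The HOX median log2 fold change of 0.44 was 0.62 and 0.52 with pseudocounts of 0.1 and 0.5, 0.32 with no filter, 0.68 after scaling to the same total, 0.50 with library weights, and 0.43 to 0.56 when a library was left out. With no filter 20 HOX genes were called higher and 2 lower, the second lower one being Hoxa4. Genes below the filter that were called higher in that run included Hoxd10 and Hoxd3, at log2 fold changes of 0.32 and 0.22. Cluster sums scaled to the same total differed by log2 values of 1.21 (A), 0.39 (B), 0.63 (C) and 0.48 (D). Without single libraries the cluster differences ranged from 0.96 to 1.06 (A), 0.16 to 0.26 (B), 0.37 to 0.53 (C) and 0.24 to 0.35 (D). Hoxb8, at -0.01, reversed to 0.16 after scaling to the same total, to 0.15 with library weights and, with single libraries left out, ranged from -0.13 to 0.12 (above 0 without serum-starved replicate 2 or control replicate 3); Hoxd8, at -0.13, reversed to 0.041 after scaling to the same total; none of these values passed the test.

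Among the other lists, TALE genes called lower numbered 0 after scaling to the same total, 2 under median-ratio scaling, quantile normalization and library weights, and 0 to 1 when a library was left out. Trithorax and MLL genes numbered 7 higher and 2 lower after scaling to the same total. Sclerotome and notochord genes called lower numbered 2 after scaling and 2 to 4 when a library was left out, regional factors called lower 1 to 3 when a library was left out, and cluster neighbours called lower 5 with library weights. The cause of these differences was not tested.

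Deviations of same-numbered libraries from their group means had correlations of 0.04, -0.16 and 0.10. Those of differently numbered libraries ranged from -0.16 to 0.16. With 3 libraries per group these values cannot decide whether the numbers pair the samples, and the labels do not say. With the replicate block, 19 HOX genes were higher and 1 lower, as without it, and 3508 and 3293 of all genes were called higher and lower, against 3640 and 3384 without the block. Depth in reads is unknown, which limits what can be said of the 9 HOX genes below the filter.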
